A study of Mus musculus with 4 samples.

Results

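Schwann cell precursors are neural crest cells that travel along growing nerves. They later form Schwann cells, and in the mouse some leave the nerve to become pigment cells, autonomic neurons or tooth mesenchyme. Neuregulin on the axon keeps them alive through the receptor pair of Erbb2 and Erbb3. In the face they lie on cranial nerve branches, of which the maxillary and mandibular branches of the trigeminal nerve enter the processes of the same names.

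A set of 4 genes that mark these cells was read across the facial processes: Erbb3, Fabp7, Cdh19 and Gfra3. They were chosen by name as glial precursor genes, 4 of 43346 gene entries, and the rule uses no measured value. The choice was still made with earlier results of these data known, as was that of the comparison lists. Wild-type mouse faces at e11.5 were dissected into medial nasal, maxillary, mandibular and lateral nasal processes, and the RNA of each process gave 1 library. Each library came from fresh dissected tissue of mixed cell types, and the sources used here name neither the number of embryos in it nor their strain. The medial nasal library carries the lateral nasal abbreviation in its source name, while its title and tissue label say medial nasal, and it is named so here.

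Gene counts per library summed to between 13216161 and 16163874, with 21779 to 22197 genes detected. Levels are in CPM (counts for every 1000000 of the library total, after TMM scaling), and 3 counts were worth 0.185 to 0.223 CPM. With 1 library per process there is no replicate error and no test. The 95% intervals cover counting error only, not variation between embryos or dissections. All 4 genes reached 1 CPM in at least 1 library, the minimum for the 16146 genes compared. In tissue of mixed cells, fewer cells of a type and less RNA per cell cannot be told apart.

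The 4 genes did not share one profile across the face. Erbb3 and Fabp7 were highest in the medial nasal process, whereas Cdh19 and Gfra3 were highest in the maxillary process and second in the mandibular process. By comparison, 25.5% of the genes compared were highest in the medial nasal and 24.8% in the maxillary library. No member was highest in the lateral nasal (22.9% of genes) or mandibular library (26.9%).

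**Figure D1:**
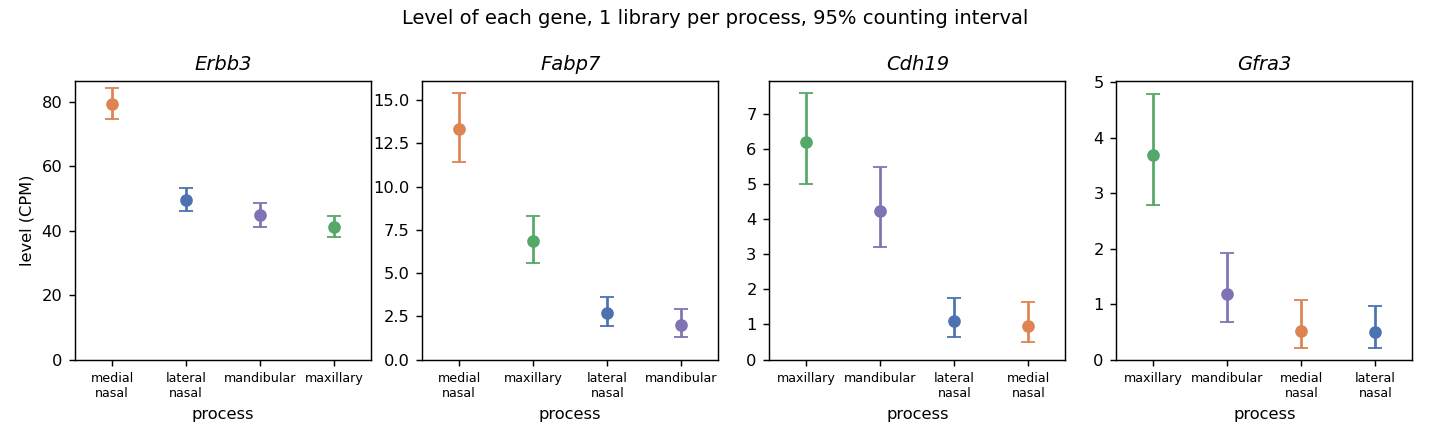
Level of Erbb3, Fabp7, Cdh19 and Gfra3 in CPM (vertical axis, from 0, a separate scale for each gene) in each process, ordered from the highest to the lowest library. Points are single libraries and bars are 95% Poisson intervals. Erbb3 and Fabp7 peak at 79.2 and 13.3 CPM in the medial nasal library, and Cdh19 and Gfra3 at 6.19 and 3.69 CPM in the maxillary library.

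Erbb3 encodes a neuregulin receptor with little kinase activity of its own, which signals by pairing with Erbb2. It lies on the minus strand of chr10:128567523-128589652 (GRCm38). It was the most counted of the 4 genes, with 1071 (medial nasal), 805 (lateral nasal), 626 (maxillary) and 602 counts (mandibular). The levels were 79.2 CPM (medial nasal), 49.5 CPM (lateral nasal), 44.7 CPM (mandibular) and 41.2 CPM (maxillary). Only the medial nasal library stood clear of the rest. Its level was 1.60-fold that of the lateral nasal process (interval 1.46 to 1.75), 1.77-fold that of the mandibular process (1.60 to 1.961) and 1.92-fold that of the maxillary process (1.74 to 2.12). The lateral nasal library exceeded the mandibular 1.11-fold (0.996 to 1.23) and the mandibular exceeded the maxillary 1.08-fold (0.968 to 1.21), so that these neighbours did not differ beyond counting error. The lateral nasal and maxillary libraries, at the ends of that group, differed 1.20-fold (1.08 to 1.34).

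Fabp7, also called brain lipid-binding protein, carries fatty acids in the cytoplasm and is found in radial glia of the brain as well as in glia of the peripheral nerve. The gene lies on the plus strand of chr10:57784881-57788450. It had 180 counts in the medial nasal, 104 in the maxillary, 44 in the lateral nasal and 27 in the mandibular library. The levels were 13.3 CPM (interval 11.4 to 15.4) in the medial nasal, 6.85 CPM (5.60 to 8.30) in the maxillary, 2.71 CPM (1.97 to 3.64) in the lateral nasal and 2.004 CPM (1.32 to 2.92) in the mandibular process. Fabp7 thus had a wider range than Erbb3, with the maxillary library in between. The medial nasal level was 1.94-fold the maxillary (1.52 to 2.497), 4.91-fold the lateral nasal (3.52 to 6.996) and 6.64-fold the mandibular (4.41 to 10.4). The maxillary level was 3.42-fold the mandibular (2.22 to 5.43) and 2.53-fold the lateral nasal (1.76 to 3.69). The lateral nasal and mandibular libraries, 1.35-fold apart, did not differ beyond counting error (0.818 to 2.27).

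Cdh19 encodes a type II cadherin, a calcium-dependent adhesion protein, and lies on the minus strand of chr1:110888326-110977584. Its counts were 94 (maxillary), 57 (mandibular), 18 (lateral nasal) and 13 (medial nasal). The corresponding levels were 6.19 CPM (interval 5.003 to 7.58) in the maxillary, 4.23 CPM (3.20 to 5.48) in the mandibular, 1.11 CPM (0.657 to 1.75) in the lateral nasal and 0.961 CPM (0.512 to 1.64) in the medial nasal process. Both first arch processes therefore lay above both nasal processes, with no overlap of their intervals. The maxillary level was 1.46-fold the mandibular (1.04 to 2.07), 5.59-fold the lateral nasal (3.35 to 9.84) and 6.44-fold the medial nasal (3.59 to 12.5). The mandibular level was 3.82-fold the lateral nasal (2.22 to 6.90) and 4.40-fold the medial nasal (2.38 to 8.77). The 2 nasal libraries could not be separated, at 1.15-fold (0.534 to 2.56). Within the span of Cdh19, on the same strand, the annotation holds Gm38255, an unconfirmed transcript model with 11 counts in the maxillary, 7 in the mandibular and 1 in each nasal library. It also holds Gm36944, with at most 5 counts.

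Gfra3 encodes the co-receptor that binds artemin and presents it to the kinase Ret. It lies on the minus strand of chr18:34689898-34720387 and was the least counted of the 4 genes, with 56 (maxillary), 16 (mandibular), 8 (lateral nasal) and 7 counts (medial nasal). The levels were 3.69 CPM (interval 2.79 to 4.79) in the maxillary, 1.19 CPM (0.679 to 1.93) in the mandibular, 0.517 CPM (0.208 to 1.07) in the medial nasal and 0.492 CPM (0.213 to 0.970) in the lateral nasal process. Only the maxillary library stood apart. It was 3.11-fold the mandibular (1.76 to 5.80), 7.13-fold the medial nasal (3.24 to 18.5) and 7.49-fold the lateral nasal (3.55 to 18.2). The mandibular library was 2.30-fold the medial nasal (0.894 to 6.599) and 2.41-fold the lateral nasal (0.974 to 6.51), both within counting error, and the nasal libraries were 1.05-fold apart (0.324 to 3.32).

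To be called higher in a process, a gene had to reach 5 CPM there and exceed the next library by at least 2-fold. By that rule 0 of the 4 genes were called in any process, against 0.898% of genes called in the medial nasal, 0.18% in the maxillary, 0.731% in the mandibular and 0.173% in the lateral nasal process. Fabp7 in the medial nasal process lay just under the 2-fold threshold, and passed it with libraries scaled to total counts (2.01-fold) or with TPM, transcripts scaled for length and library (2.02-fold). With a minimum of 1 CPM, Gfra3 was called in the maxillary process, where 0.384% of genes were.

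Between single pairs of processes the calls were more frequent. Maxillary over lateral nasal called Fabp7 and Cdh19 at 5 CPM (0.91% of genes), and Gfra3 as well at 1 CPM (2.41%). Cdh19 was the one member called for maxillary over medial nasal (0.985%), and Gfra3 joined it at 1 CPM (2.3%). For maxillary over mandibular the call was Fabp7 (0.799%), with Gfra3 added at 1 CPM (2.37%). Mandibular over lateral nasal (5.2%) and mandibular over medial nasal (3.35%) each called Cdh19 and Gfra3 at 1 CPM. Medial nasal over lateral nasal (1.78%) and medial nasal over mandibular (2.97%) called Fabp7 alone at 5 CPM. Erbb3 was called in none of these pairs.

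As a common measure, log2(CPM + 0.5) in each process was set against the mean of the other 3 libraries. The median over the 4 genes was 1.10 (maxillary), -0.05 (medial nasal), -0.11 (mandibular) and -0.97 (lateral nasal), while the median over all genes compared lay between -0.01 and 0.01. The median hides the split. In the maxillary process Gfra3 was at 1.81 (interval 1.36 to 2.26), Cdh19 at 1.58 (1.21 to 1.956), Fabp7 at 0.61 (0.29 to 0.94) and Erbb3 at -0.44 (-0.56 to -0.31). In the medial nasal process Fabp7 was at 1.83 (1.54 to 2.12) and Erbb3 at 0.81 (0.70 to 0.91), but Gfra3 at -0.91 (-1.51 to -0.31) and Cdh19 at -1.34 (-1.90 to -0.79). In the mandibular process Cdh19 was at 0.92 and Fabp7 at -1.46. In the lateral nasal process all 4 lay below the mean of the others, with Erbb3 nearest to it at -0.09 (-0.20 to 0.03). Without Erbb3 the maxillary median was 1.58 and the medial nasal -0.91, a choice made after the values were seen.

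The proportions of the 4 transcripts within a library also differed, and this comparison does not depend on scaling between libraries. Erbb3 made up 71.1% of the counts of the 4 genes in the maxillary, 84.3% in the medial nasal, 85.8% in the mandibular and 92% in the lateral nasal library. The number of Erbb3 counts per Cdh19 count was 82.4 (exact binomial interval 48.0 to 155) in the medial nasal and 44.7 (28.1 to 75.8) in the lateral nasal library. It was 10.6 (8.04 to 14.1) in the mandibular and 6.66 (5.35 to 8.36) in the maxillary library. Fabp7 per Cdh19 was 13.8 (7.89 to 26.5) in the medial nasal, 2.44 (1.38 to 4.49) in the lateral nasal, 1.11 (0.829 to 1.48) in the maxillary and 0.474 (0.288 to 0.761) in the mandibular library. Gfra3 per Cdh19 was 0.596 (0.420 to 0.838) in the maxillary and 0.281 (0.150 to 0.496) in the mandibular library, with both nasal libraries between these values and their intervals wide. Per transcript length, Fabp7 was the most abundant of the 4 in the medial nasal library, at 17.55 TPM against 11.42 TPM for Erbb3. It was so in the maxillary library too, at 8.67 TPM against 5.79 TPM.

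**Figure D2:**
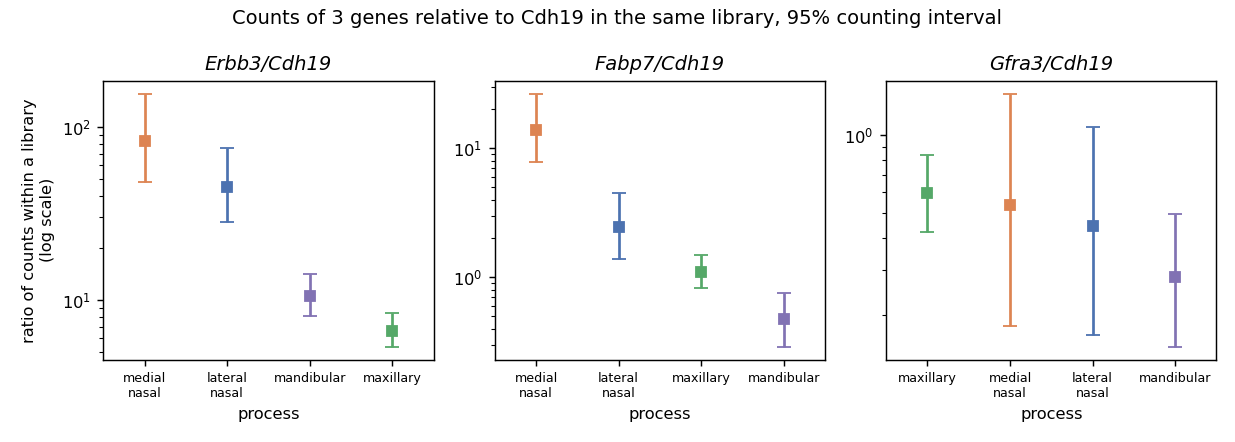
Counts of Erbb3, Fabp7 and Gfra3 per count of Cdh19 in the same library (vertical log axis, a separate scale for each gene), ordered from the highest to the lowest library. Squares are single libraries and bars are 95% exact binomial intervals. Erbb3 per Cdh19 is 82.4 in the medial nasal and 6.66 in the maxillary library, while the Gfra3 ratio stays between 0.281 and 0.596.

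A list of 22 other glial precursor genes was read in the same way to set the members in their lineage. Of these, 16 reached 1 CPM. In the maxillary library 9 of the 16 were highest (8 when TPM was used), against 24.8% of all genes compared. Among the 9 were Sox10, Foxd3, Ngfr, Gap43, Egfl8, Zeb2, Ednrb and Cnp. A further 5, L1cam, Sox2, Pou3f1, Mbp and Tfap2a, were highest in the medial nasal library, where 25.5% of all genes were. The median log2 difference of the list was 0.43 in the maxillary, within 0.01 of 0 in the medial nasal, -0.13 in the lateral nasal and -0.27 in the mandibular process. Several of these genes are used by other cells of the face too, among them Zeb2, Sox2 and Tfap2a.

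Sox10, the transcription factor that specifies the glial lineage of the neural crest, was at 6.45 CPM (maxillary), 3.99 CPM (medial nasal), 3.04 CPM (mandibular) and 1.72 CPM (lateral nasal). The maxillary level was 1.62-fold the medial nasal (interval 1.15 to 2.30) and 3.75-fold the lateral nasal (2.44 to 5.92). Sox10 was therefore highest in the maxillary process, as Cdh19 and Gfra3 were. It ranked second in the medial nasal process, but its level there was within counting error of the mandibular level (1.31-fold, 0.858 to 2.02). Per Sox10 count, Cdh19 had 0.959 counts (0.715 to 1.29) in the maxillary and 1.39 (0.914 to 2.13) in the mandibular library, but 0.241 (0.121 to 0.447) in the medial nasal library. Erbb3 had 6.39 counts per Sox10 count (5.16 to 7.99) in the maxillary library and 14.7 (10.7 to 20.7) to 28.75 (19.7 to 43.5) in the other 3.

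Foxd3, a neural crest transcription factor kept in early glia, had 48 counts in the maxillary, 11 in the mandibular, 8 in the medial nasal and 6 in the lateral nasal library. Its maxillary level of 3.16 CPM was 3.87-fold the mandibular level (interval 1.98 to 8.27). Ngfr, the p75 neurotrophin receptor, was at 38.6 CPM in the maxillary and 11.1 to 16.9 CPM in the other processes, and was called higher there at 5 CPM. Egfl8, a secreted protein with EGF-like repeats, had 63 counts in the maxillary and 13 to 18 in each other library, at 3.73-fold the mandibular level (2.10 to 7.05). Of the list's 16 measured genes 3, Foxd3, Ngfr and Egfl8, were called higher in the maxillary process at 1 CPM, against 0.384% of genes. Egfl8 overlaps Agpat1 on the opposite strand, with 590 to 727 counts, and the sources used here do not say whether the counting used strand.

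Gap43, L1cam and Tfap2a, which neurons or epithelium also express, were called lower in the mandibular process, where 0.248% of genes were. Among genes of later Schwann cells and other mature glia, Pmp22, Mbp and Cnp were well counted. Pmp22 was highest in the mandibular library (1.94-fold the lateral nasal, interval 1.64 to 2.29). Mbp was highest in the medial nasal library (1.47-fold the lateral nasal, 1.23 to 1.76). Cnp was highest in the maxillary library, within counting error of the lateral nasal (1.17-fold, 0.992 to 1.39). Others were close to the limit of detection. Dhh, a signal from Schwann cells to the nerve sheath, had 2 to 6 counts, Mal 0 to 4, Gfap 0 to 5 and S100b 4 to 13. Of these, S100b was 3.92-fold higher in the mandibular than in the lateral nasal library (interval 1.21 to 16.5) and 3.90-fold higher in the medial nasal than in the lateral nasal library (1.21 to 16.4). Sox10, Foxd3 and Ngfr were all counted in every library, Foxd3 with few counts in the nasal ones. Neither the stage of the glia in each library nor the part of other cells in these counts was tested.

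**Figure D3:**
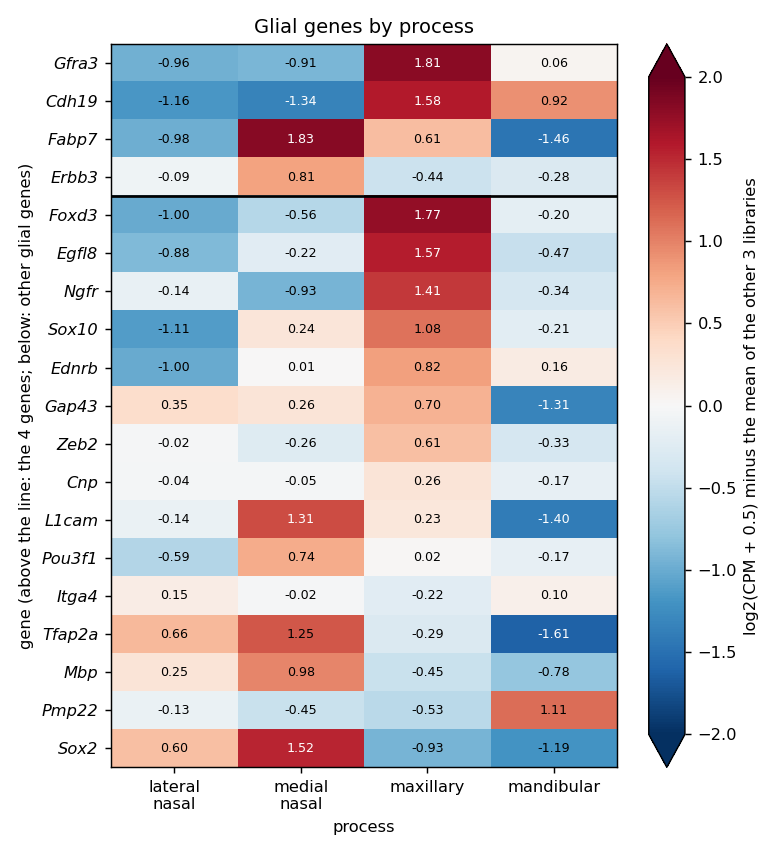
Difference of log2(CPM + 0.5) in each process (columns) from the mean of the other 3 libraries for the 4 genes (rows above the line) and 15 of the 16 other glial precursor genes that reached 1 CPM (rows below), on a colour scale from -2 to 2 with each value printed in its cell. Gfra3 and Cdh19 share the positive maxillary values of Foxd3, Egfl8 and Ngfr, while Erbb3 is at -0.44 there.

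**Figure D4:**
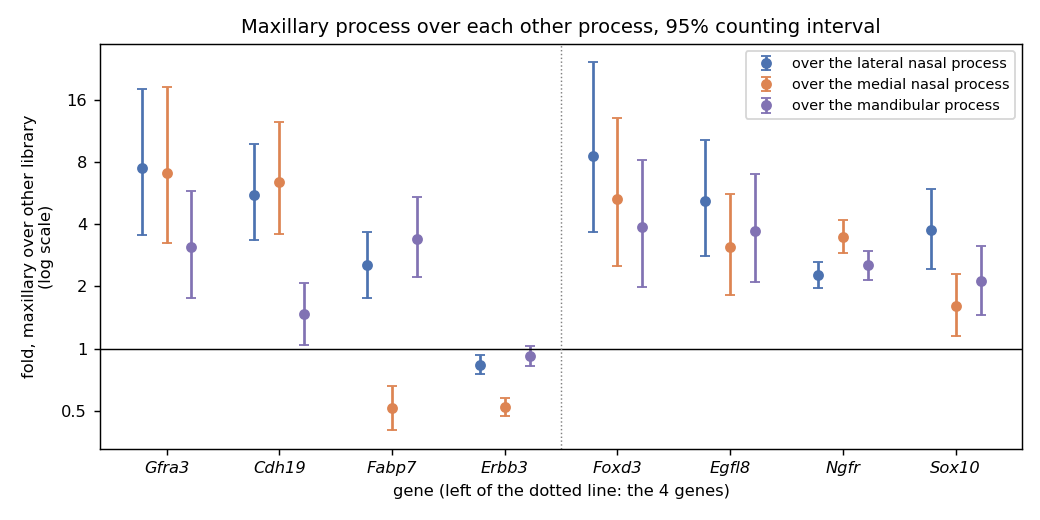
Fold of the maxillary library over each other library (vertical log axis, with a line at 1) for the 4 genes and 4 other glial precursor genes, with 95% exact binomial intervals and 1 library per process. Every fold of Gfra3, Cdh19, Foxd3, Egfl8, Ngfr and Sox10 lies above 1, whereas Fabp7 and Erbb3 lie near 0.5 over the medial nasal library. The 4 other genes shown are among those highest in the maxillary library, so that their folds above 1 follow from the selection. Of the 16 measured genes of their list, 5 were highest in the medial nasal, 1 in the lateral nasal and 1 in the mandibular library.

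The RefSeq table of sequences before gene starts (GRCm38.p6) matched 17 of the 26 glial genes, Fabp7 among the 4 members. The windows of Fabp7, highest in the medial nasal process, and of Egfl8, highest in the maxillary process, are printed as 1 example of each pattern. Foxd3 and Ngfr, also highest in the maxillary process, had windows with no match to any motif searched, and Egfl8 was chosen after its matches were seen. They were trimmed at the earliest annotated gene start, and both strands were searched for ACAAAG and ACAATG (bound by SOX factors), GCCNNNGGC (TFAP2 factors) and CACCTG (an E box). The Fabp7 window, chr10:57784673-57784880 on the plus strand, has 208 bases. Capitals mark CCAAT on the reverse strand, a promoter element that was added after the sequence was seen. The Egfl8 window, chr17:34615972-34616221 on the minus strand, has 250 bases, with capitals at GCCNNNGGC and at ACAAAG on the reverse strand, which do not overlap.
Fabp7: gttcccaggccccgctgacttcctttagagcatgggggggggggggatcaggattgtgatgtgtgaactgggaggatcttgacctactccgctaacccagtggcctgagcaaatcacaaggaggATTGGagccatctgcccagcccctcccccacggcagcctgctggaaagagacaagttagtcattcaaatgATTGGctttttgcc
Egfl8: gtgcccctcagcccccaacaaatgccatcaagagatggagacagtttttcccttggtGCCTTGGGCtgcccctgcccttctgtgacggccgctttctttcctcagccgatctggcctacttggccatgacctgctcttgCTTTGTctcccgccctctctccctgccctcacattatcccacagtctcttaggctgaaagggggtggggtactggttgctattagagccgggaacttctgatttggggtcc

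In the Fabp7 window none of the SOX, TFAP2 and E box letters matched, and CCAAT matched at -126 and -56 bases from the RefSeq start. Among all 32851 windows of 208 bases, 14.1% held ACAAAG, 9.3% ACAATG, 11.1% GCCNNNGGC, 14.9% CACCTG and 29.6% CCAAT. In the Egfl8 window GCCNNNGGC matched at -193 and ACAAAG at -111, which 13.7% and 16.5% of the windows of 250 bases held. Of the 17 glial genes matched, 3 held ACAAAG, 0 ACAATG, 4 GCCNNNGGC, 2 CACCTG and 6 CCAAT. These are matches of letters, not binding sites.

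The families of the members were read next, beginning with the partners and ligands of Erbb3. Of 17 ErbB receptors, ligands and regulators, 12 reached 1 CPM. Of the 12, 6 were highest in the medial nasal library, as Erbb3 was, against 25.5% of all genes compared. In the maxillary library 0 were highest (24.8% of all genes), although in TPM Egfr was highest there. In the medial nasal library Erbb4 was 1.63-fold the next library (interval 1.19 to 2.27) and Nrg1 1.67-fold (1.10 to 2.56). Egfr, Erbb2, Nrg3 and Nrg4 did not exceed the next library beyond counting error. Erbb2, the partner kinase, ranged only from 71.4 to 78.4 CPM. Erbb3 had 1.01 counts per Erbb2 count (interval 0.926 to 1.10) in the medial nasal, 0.690 (0.630 to 0.756) in the lateral nasal, 0.590 (0.532 to 0.653) in the mandibular and 0.577 (0.523 to 0.638) in the maxillary library. Nrg1, the neuregulin that axons present to glia, was at 4.21 CPM (medial nasal), 2.52 CPM (lateral nasal), 1.84 CPM (maxillary) and 1.34 CPM (mandibular). Erbb4, a further neuregulin receptor, was at 7.76 CPM (medial nasal), 4.75 CPM (mandibular), 4.02 CPM (maxillary) and 1.48 CPM (lateral nasal). None of the 12 was called higher in the medial nasal process.

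Of 11 GDNF family receptors and ligands, 9 reached 1 CPM, and Gfra4 was the one highest in the maxillary library. Ret, the kinase with which Gfra3 signals, ran the other way from Gfra3. It was at 9.60 CPM (lateral nasal), 4.51 CPM (medial nasal), 1.19 CPM (mandibular) and 0.659 CPM (maxillary), and was called higher in the lateral nasal process. The ratio of Gfra3 to Ret in TPM was 20.6 in the maxillary, 3.24 in the mandibular, 0.453 in the medial nasal and 0.195 in the lateral nasal library. In the maxillary library this rests on 56 counts of Gfra3 and 10 of Ret. Artn, which encodes the ligand artemin, had 18 counts in the maxillary, 13 in the mandibular, 8 in the medial nasal and 20 in the lateral nasal library. Gfra2, the neurturin co-receptor, was called higher in the mandibular process, at 7.72 CPM against 1.91 to 3.62 CPM elsewhere, and Gfra1, the GDNF co-receptor, was at 25.1 CPM there and 11.53 to 15.1 CPM elsewhere.

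Among 12 relatives of Fabp7 that bind fatty acids or retinoids, 5 reached 1 CPM, and Crabp1 was the one highest in the medial nasal library. Fabp5, the epidermal form, was at 106 to 141 CPM, highest in the maxillary process. Fabp4, Fabp1 and the myelin protein gene Pmp2 had at most 2 counts in any library. Crabp1, a retinoic acid carrier of neural crest mesenchyme, was called lower in the mandibular process (101 CPM, against 213 to 377 CPM elsewhere).

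All 12 other type II cadherins reached 1 CPM. The neighbours of Cdh19 on chromosome 1 had other orders of the libraries. Cdh20 was at 0.395 CPM (maxillary), 0.668 CPM (mandibular), 2.88 CPM (medial nasal) and 2.28 CPM (lateral nasal). Its lateral nasal level was 3.41-fold the mandibular (interval 1.62 to 8.03). Cdh7 was at 2.29 CPM (medial nasal), 1.91 CPM (maxillary), 0.965 CPM (mandibular) and 0.615 CPM (lateral nasal). The medial nasal level of Cdh7 was within counting error of the maxillary level (1.20-fold, 0.699 to 2.06). Cdh10 was called higher in the medial nasal process, at 26.4 CPM against 6.90 to 10.1 CPM elsewhere. Cdh11, the mesenchymal cadherin, was at 786 CPM in the maxillary and 528 to 589 CPM in the other processes.

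The likeness of profiles was measured over the 4 libraries as the distance between log2(CPM + 0.5) values centred on each gene's mean, and is a description only. Cdh19 and Gfra3 were 0.75 apart, Erbb3 and Fabp7 1.56, and Fabp7 and Cdh19 3.06. Foxd3 was 0.33 from Gfra3, nearer than any member was. Of 11514 protein-coding genes with at least 5 CPM in a library, the 10 nearest to the mean profile of the members were Lum, Lgr6, Lin7a, Sox10, Nell2, Spon1, Ednrb, Fez1, Pcdh17 and Brinp1. Sox10 was the fourth, at a distance of 0.30, and Ednrb, the endothelin receptor of neural crest cells, the seventh. The mean profile averages members that differ, so that nearness to it is not nearness to any member. Sox10 was 1.05 from Gfra3, 1.44 from Erbb3, 1.51 from Cdh19 and 1.55 from Fabp7. Nearest to Erbb3 were Trp53i11, Abca3 and Sema4d, and nearest to Fabp7 were Syt1, Pou3f4 and Abca9. Nearest to Cdh19 were Tbx18, Postn and Gria1, and nearest to Gfra3 were Col6a6, Gria2 and Plcb1. Postn and Tbx18 are well known from mesenchyme, and Syt1 and Pou3f4 from neurons and the developing brain. The other neighbours, among them Gria1 of Cdh19 and Gria2 of Gfra3, were not sorted by cell type.

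Markers of some other cells shared the medial nasal peak of Erbb3 and Fabp7. Below that peak the orders were not all alike. The log2 difference of Fabp7 was 0.61 in the maxillary and -0.98 in the lateral nasal process. The median of the brain neuroepithelium genes was -0.84 and -0.37 in these processes, and that of the cranial sensory neuron genes 0.10 and -0.34. Of 12 brain neuroepithelium genes, 10 were highest in the medial nasal library, where the list summed to 369 CPM, against 184 to 199 CPM in the other processes. Sox1 had 106 counts and En2 76 counts in the medial nasal library, against at most 12 and 3 in any other. Otx2 was at 0 counts in the mandibular library. Of 15 cranial sensory neuron genes that reached 1 CPM, 10 were highest in the medial nasal library as well (12 in TPM), with sums of 440 CPM there, 289 CPM (maxillary), 159 CPM (mandibular) and 265 CPM (lateral nasal). The sensory neuron factor Pou4f1 had 41 counts in the medial nasal, 24 in the maxillary, 7 in the mandibular and 1 in the lateral nasal library. The part of brain and neuron RNA in the medial nasal levels of Fabp7 and Erbb3 was not tested.

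Epithelium, in which Erbb3 is also expressed, differed in another way. Its 10 markers summed to 397 CPM (medial nasal), 345 CPM (maxillary), 256 CPM (mandibular) and 445 CPM (lateral nasal), and 4 to 6 of them, depending on the scaling, were highest in the lateral nasal library. Of 5 measured melanoblast genes, 4 were highest in the lateral nasal library, against 22.9% of all genes compared. Pmel was at 9.17 CPM there and 0.591 to 2.70 CPM elsewhere, whereas Kit was highest in the mandibular library. Sox10 and Ednrb, which the melanoblast lineage shares, were lowest in the lateral nasal library, at 1.72 and 10.2 CPM. Which cells held these transcripts was not tested. Tyr and Tyrp1 were at 0 counts in both the medial nasal and mandibular libraries. Facial mesenchyme genes summed to 2293 CPM (maxillary), 2230 CPM (mandibular), 1705 CPM (medial nasal) and 2027 CPM (lateral nasal). Single genes of that list differed, with 2 of 8 highest in the maxillary, 3 in the mandibular and 3 in the lateral nasal library. Most muscle genes, 5 of 7, were higher in both first arch libraries than in either nasal one, as Cdh19 was, but peaked in the mandibular library. Their median log2 difference was 3.23 (mandibular), 0.74 (maxillary), -1.996 (medial nasal) and -2.005 (lateral nasal). The other 2, Pax3 and Pax7, were highest in the lateral nasal library. Myog, a muscle differentiation factor, had 290 counts in the mandibular, 79 in the maxillary, 2 in the medial nasal and 5 in the lateral nasal library. The share of each of these tissues in the levels of the 4 genes was not tested.

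**Figure D5:**
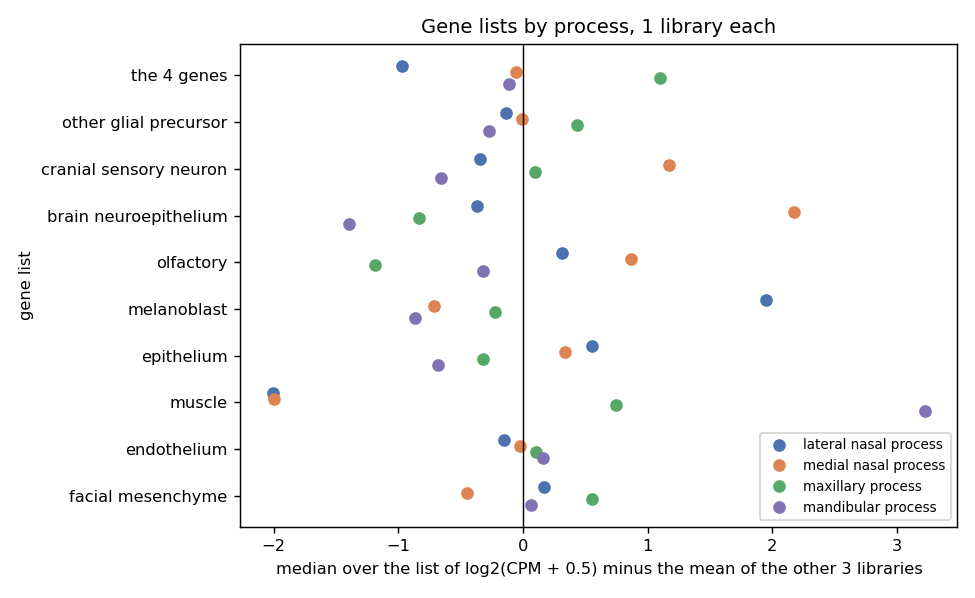
Median over each gene list (rows) of the difference of log2(CPM + 0.5) in a process from the mean of the other 3 libraries (horizontal axis), with 1 point per process. The 4 genes reach 1.10 in the maxillary process, brain neuroepithelium genes 2.17 and cranial sensory neuron genes 1.17 in the medial nasal process.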

How the data were processed

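Total RNA of 4 dissected mouse facial processes was ribosome-depleted, made into strand-marking libraries and sequenced as single reads of 50 bp. Per the labels and methods, the authors used an ENCODE long-RNA pipeline with STAR and RSEM 1.4.1 on mm10 with GENCODE M4. The deposited expected counts (RSEM estimates per gene) were rounded to whole numbers. The deposited TPM values, scaled by the authors for transcript length and library total, served for comparisons between genes. The deposited TPM intervals and effective lengths were read but enter no result. Symbols and positions came from GENCODE M21 (GRCm38).

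CPM used TMM factors from edgeR 4.0.16 (R 4.3.3), on genes whose highest count in any single library was at least 10. Intervals of levels are exact Poisson, those of folds and ratios exact binomial, and those of log2 differences use the delta method, computed in Python 3.11.15 with scipy 1.17.1. Calls need 2-fold and 5 CPM, or 1 CPM where stated. No test was run, as each process has 1 library. The scripts were tested on simulated data.

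The members and all 13 other gene lists were chosen with earlier results of these data known. Named genes are the members, genes of the glial and family lists, up to 4 of each other list, and the nearest profiles (10 to the mean, 3 to each member) among protein-coding genes with 5 CPM. Alternatives were DESeq2 1.42.0 size factors, total counts, protein-coding genes alone, TPM, the deposited posterior mean counts, other pseudocounts (0.1 and 2), other minimums (1 and 20 CPM) and 3-fold.

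A few genes of the lists enter the counts and medians and are not reported by name here.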

Additional observations from a re-analysis of the deposited data

How the results depend on the processing

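The highest library of each of the 4 genes was the same under all scalings tried, and 5 of 112 alternative values of the members moved by more than their counting interval, none of those 5 changing sign. The median of the 4 genes also moved. In the medial nasal process it was 0.81 with a minimum of 5 CPM, and -0.91 without Erbb3 and also without Fabp7. In the maxillary process it was 0.74 with a pseudocount of 2, 0.61 with a minimum of 5 CPM, and 1.58 without Erbb3 and also without Fabp7. The versions without a member were chosen after seeing the data. Among the other lists, the melanoblast median in the medial nasal process turned from -0.71 to 0.14 with a minimum of 5 CPM, which leaves fewer genes. The numbers of genes called depend on the settings by construction. With a minimum of 1 CPM, 357 genes were called higher in the medial nasal, 62 in the maxillary, 254 in the mandibular and 69 in the lateral nasal process, and 121 lower in the mandibular process. With 20 CPM these numbers were 33, 12, 53, 8 and 12. With no minimum they were 1520, 782, 1367, 861 and 807. With 3-fold they were 52, 4, 54, 12 and 10. With TPM they were 45 for the medial nasal, 16 for the maxillary, 75 for the mandibular and 20 for lower in the mandibular process. The main numbers were 145, 29, 118, 28 and 40. Every scaling left the median of all genes within 0.1 of 0 on the log2 scale. Gfra3 and Cdh19 had 7 to 18 counts in the nasal libraries, so that their folds over these are known only within wide intervals. No paired analysis was possible because each process has 1 library, and for the same reason no replicate could be left out.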
